A study of Mus musculus with 20 samples.

Results

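Genes that mark macrophages and genes of the complement system were followed in dendritic cells grown from mouse bone marrow (BMDCs), treated with the BET bromodomain inhibitor I-BET151 (iBET) and stimulated with immune complexes. The 10 genes are Mertk, C1qa, C1qb, C1qc, Apoe, Trem2, Gpnmb, C3, Cfb and Cfp, out of 24421 genes in the count table. They were chosen by what they encode, with earlier results of these data known. BMDCs were grown from bone marrow for 8 days in 40 ng/mL GM-CSF, and RNA-seq was performed on 20 libraries, 1 for each of 5 mice (A to E) in each of 4 groups. DMSO Ova is 5% DMSO with ovalbumin, DMSO IC is 5% DMSO with immune-complexed ovalbumin, IBET Ova is 3.3 µM I-BET151 with ovalbumin and IBET IC is 3.3 µM I-BET151 with immune-complexed ovalbumin, each with 4 h of stimulation. All groups came from wild-type C57BL/6 marrow, and the same 5 animals stand in every group. The labels give no age or sex, and the methods report mice of both sexes for all experiments. The labels also give no DMSO content for the iBET groups, and the methods state that iBET was diluted from a stock in DMSO. Whether their DMSO content matched the 5% of the DMSO groups is not known, and an effect of solvent was not tested. Cultures of this kind hold dendritic cells together with macrophage-like cells. The labels mention sorting of the cells and the methods lysis in the culture, so whether macrophages were removed is not known.

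C1q is the recognition molecule of the classical complement pathway. Each C1q molecule is built from A, B and C chains, encoded by C1qa, C1qb and C1qc, and it binds antibody that is held in an immune complex. C3 is the central component that all complement pathways cleave, and Cfb (factor B) and Cfp (properdin) belong to the alternative pathway, which amplifies the deposition of C3. Mertk is a receptor for apoptotic cells, Trem2 a lipid-sensing receptor that signals through Tyrobp, Apoe a lipid carrier and Gpnmb a transmembrane glycoprotein of lysosomes. Macrophages are a main source of C1q, and BET proteins read acetylated histones at active genes.

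Libraries held between 16447491 and 29245150 counts (median 21764663), and 12465 genes passed the filter on low counts. All 10 genes passed it, with 142 counts or more in every library. Levels are in CPM, the count relative to library size, scaled with TMM factors between 0.924 and 1.08. The labelled cell type was checked on 12 dendritic cell markers, of which 11 passed the filter. The sum of the 12 was 4503 to 7115 CPM in DMSO Ova, 4697 to 7236 in IBET Ova, 5265 to 8288 in DMSO IC and 5586 to 9055 in IBET IC, and Itgax (CD11c) lay between 1718 and 2725 CPM in all libraries. Flt3, which conventional dendritic cells depend on, was at 1.01 to 4.94 CPM in DMSO Ova and 0.121 to 0.408 in IBET Ova. The median log2 fold change of the 11 tested markers was -0.84 with iBET in Ova. The 6 monocyte markers summed to 371 to 778 CPM in DMSO Ova, 208 to 423 in DMSO IC, 57.2 to 70.0 in IBET Ova and 58.7 to 76.9 in IBET IC, of which Ccr2 accounted for 306 to 721 and 13.3 to 16.2 CPM in DMSO Ova and IBET Ova. The 11 neutrophil markers present in the table lay between 436 and 921 CPM in sum, which was mainly Mmp8. The highest count in a library was 24380 for Mmp8, and the next highest neutrophil marker, S100a9, reached 558. S100a8 did not exceed 18.4 CPM in any group, and S100a9 did not exceed 27.1. The 5 eosinophil markers lay between 56.0 and 221 CPM in sum and the 6 mast cell and basophil markers between 7.96 and 35.0. Sums of the 5 B cell and 7 T and NK cell markers did not exceed 1.55 CPM, and those of the 6 erythroid markers did not exceed 15.9. With iBET in Ova, 3 of 6 monocyte, 5 of 11 tested dendritic cell, 2 of 9 tested neutrophil and 2 of 5 eosinophil markers fell in edgeR and 1 neutrophil marker rose. Of all genes tested 28.9% fell and 27.7% rose. The monocyte sums were lower with iBET, as the C1q genes were, but Ly6c2 was at 17.6 to 39.7 CPM in DMSO Ova and 21.7 to 40.3 in IBET Ova. With IC under DMSO the monocyte sums lay lower as well, with Ccr2 at 145 to 364 CPM and Ly6c2 at 28.8 to 38.8 CPM in DMSO IC. In that comparison 1 of 6 monocyte markers fell and 0 rose in edgeR, where 10.7% and 9.59% of all genes did. Of the 6 log2 fold changes, 3 were above 0 and 3 below, and that of C1qb was 0.021. The part of monocytes in the results was not tested. In bulk RNA, fewer cells of a type and less RNA per cell cannot be told apart.

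Cfp had the highest level per kb of exon among the 10 genes in DMSO Ova, and Apoe the lowest. Dividing CPM by the length of all annotated exons gave 409.5 ± 47.7 CPM per kb for Cfp, 224 ± 23.8 for C3 and 221 ± 95.2 for Gpnmb (mean ± SD, n = 5). Next came Cfb at 71.0 ± 19.3, C1qb at 64.4 ± 19.7 and Trem2 at 28.1 ± 8.97 CPM per kb. C1qc (20.2 ± 7.58), C1qa (19.0 ± 4.73), Mertk (18.2 ± 5.31) and Apoe (10.2 ± 6.32) were lowest. Among neighbours in this order, Cfp against C3 and Gpnmb against Cfb were separated in all mice, and the other neighbouring pairs overlapped. C3 and Gpnmb, Cfb and C1qb, C1qc and C1qa, and C1qa and Mertk also changed places between mice. Cfp ranked 94 and Apoe 3881 among 11973 genes with a length, so that all 10 genes were in the upper 32.4% by level per kb. The order depends on the length used, which was 4946 bases for Trem2 and 1088 for C1qb. In CPM, Gpnmb was highest (1442 ± 620) and Trem2 (139 ± 44.4) lay above C1qb (70.1 ± 21.4).

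The 3 C1q genes lie side by side on the minus strand of chromosome 4 (mm10). C1qa is at chr4:136895917-136898803, C1qc at chr4:136889804-136893065 and C1qb at chr4:136880129-136886187, and no other annotated gene overlaps any of them. Promoter sequences are shown for C1qb and C1qc because these genes moved together. They are bases before the RefSeq start site (GRCm38.p6) that no annotated exon of the gene covers, on the minus strand, 250 bases for C1qb (chr4:136886201-136886450) and 99 for C1qc (chr4:136893066-136893164). Capitals mark the motif matches described after them.
C1qb: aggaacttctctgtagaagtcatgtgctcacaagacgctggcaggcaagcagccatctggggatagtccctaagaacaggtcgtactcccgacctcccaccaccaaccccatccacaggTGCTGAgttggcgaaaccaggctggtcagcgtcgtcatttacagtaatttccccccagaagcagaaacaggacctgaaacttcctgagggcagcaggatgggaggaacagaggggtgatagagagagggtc
C1qc: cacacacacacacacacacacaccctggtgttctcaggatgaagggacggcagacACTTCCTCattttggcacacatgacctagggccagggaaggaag
The C1qc match is the PU.1 type ETS motif GAGGAAGT on the other strand, with its first base at -195 from the start, and 3.2% of 32851 promoter windows of 300 bases hold it on either strand. The C1qb match is TGCTGA, part of a MAF element, with its first base at -131, which 19.5% of windows hold. AP-1 (TGACTCA, 5.2% of windows) was matched only in the Gpnmb window, and TATAAA (13.6%) in C3 and in 1 of 3 Apoe windows. CACGTG (7.15%), its longer MITF/TFE form TCACGTGA (0.974%) and the kappa B type GGGNNTTCC (5.82%) had no match in the windows of these genes. TGCTGA was also matched on the other strand for C3. The table held windows for 8 of the 10 genes, without C1qa and Cfb. These matches are letters in a window and were not tested as binding sites.

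The first comparison asked how iBET changed these genes in cells given ovalbumin alone. All 3 C1q chains fell, and none of the other 7 genes passed the test. C1qb fell furthest, with an iBET to DMSO ratio of 0.495. The ratio was 0.566 for C1qc and 0.626 for C1qa. By the edgeR quasi-likelihood test, with p-values adjusted by Benjamini-Hochberg over all 12465 genes, 3 of 10 genes were lower and 0 higher at an adjusted p under 0.05. Across all genes tested 28.9% were lower and 27.7% higher, so the share of the 10 genes that fell was close to that of the transcriptome. The median log2 fold change was -0.18 over the 10 genes and -0.0029 over all genes.

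C1qb in mice A to E was at 74.6, 103, 65.3, 63.9 and 43.9 CPM in DMSO Ova and at 40.7, 36.1, 39.1, 35.2 and 22.3 CPM in IBET Ova. Every iBET library lay below every DMSO library, which was so for 19.5% of all genes tested. The log2 fold change was -1.02 (SE 0.23, adjusted p = 9.26e-04), and 10.2% of genes had a more negative one. C1qc was at 42.6, 61.7, 37.6, 29.2 and 23.7 CPM in DMSO Ova and at 28.7, 24.2, 24.6, 17.7 and 14.9 in IBET Ova. Its groups overlapped only through the DMSO library of mouse E, the lowest mouse in both, and its log2 fold change was -0.82 (SE 0.27, adjusted p = 0.0148). C1qa, the least abundant chain in CPM, was at 20.3, 24.4, 24.0, 17.4 and 12.6 CPM in DMSO Ova and at 13.9, 11.8, 17.9, 11.0 and 7.28 in IBET Ova. These groups overlapped as well, with mouse E lowest in both, and the log2 fold change was -0.68 (SE 0.29, adjusted p = 0.0497).

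All 3 chains were lower with iBET in 5 of 5 mice, by log2 differences of -1.04 to -0.42 for C1qa, -1.51 to -0.74 for C1qb and -1.35 to -0.57 for C1qc. Mouse B, which had the highest C1q levels in DMSO Ova, gave the largest decrease for each chain. Without mouse B the log2 fold change was -0.82 for C1qb (adjusted p = 0.0125), -0.61 for C1qc (adjusted p = 0.0989) and -0.55 for C1qa (adjusted p = 0.199) in edgeR, so that only C1qb still passed. The call for C1qa was also lost without mouse A (adjusted p = 0.102) or D (adjusted p = 0.122) in edgeR, with DESeq2 size factors (adjusted p = 0.0505 in edgeR), with limma on the deposited signal values (adjusted p = 0.0506) and without the filter on low counts (adjusted p = 0.0638 in edgeR). With the mouse as a block, all 3 chains passed in edgeR, with 95% intervals of the log2 fold change of -0.88 to -0.49 for C1qa, -1.22 to -0.78 for C1qb and -1.02 to -0.57 for C1qc.

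**Figure D1:**
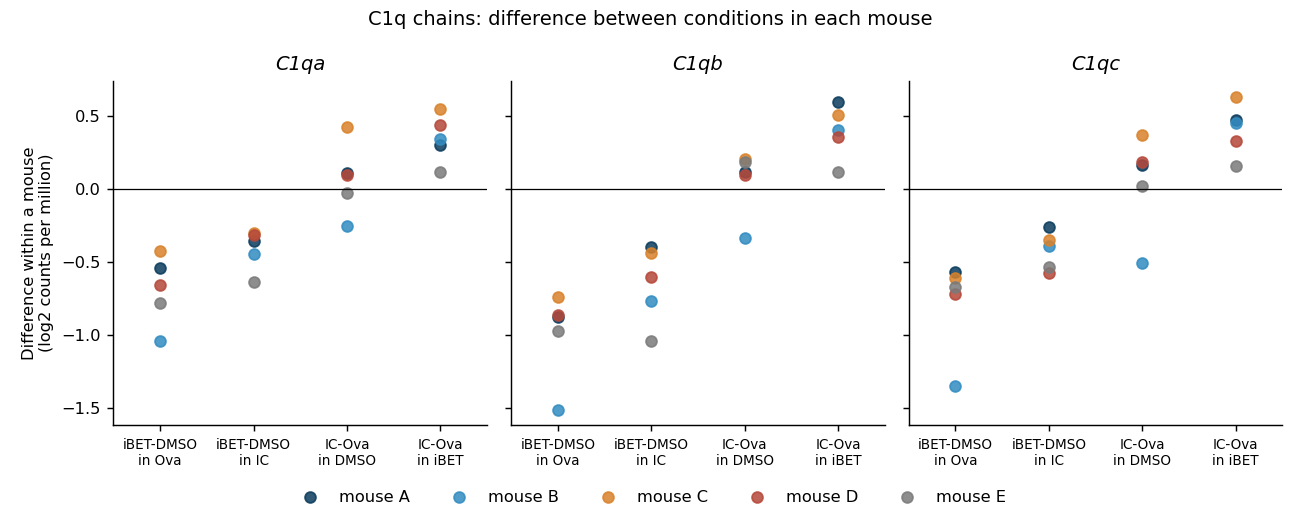
Difference in log2 CPM between conditions within each mouse (y axis) for C1qa, C1qb and C1qc in the 4 pairwise comparisons (x axis), 1 point per mouse. The iBET differences lie below 0 in 5 of 5 mice for each chain with either stimulus, from -1.51 (C1qb, mouse B, Ova) to -0.26 (C1qc, mouse A, IC), and the IC differences under iBET lie above 0 in 5 of 5 mice.

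C1qb lost a small part of its share within each mouse. It made up 54.5 ± 2.26% of all C1q counts in DMSO Ova and 50.4 ± 2.74% in IBET Ova (mean ± SD, n = 5). C1qc made up 29.9 ± 2.28% and 31.9 ± 2.81%, and C1qa 15.6 ± 2.16% and 17.7 ± 2.35%. The C1qb share was lower with iBET in 5 of 5 mice with Ova, with differences of -5.39 to -2.77 percentage points, and in 5 of 5 with IC, with differences of -8.10 to -1.78. The shares of C1qa and C1qc were higher in 5 of 5 mice with Ova and in 4 of 5 with IC. The shares were not tested, since an exact two-sided test on 5 pairs cannot go below p = 0.0625.

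C3, Cfb and Cfp did not pass the test with Ova, and each had a mean slightly above that in DMSO. C3 was at 1111, 1147, 1189.7, 1323 and 987 CPM in mice A to E with DMSO Ova and at 1266, 1237, 1370.2, 1425 and 1048 CPM with IBET Ova. The groups overlapped, although each mouse was higher with iBET, by 0.087 to 0.20 on the log2 scale. The log2 fold change did not pass without the block, at 0.14 (95% interval -0.041 to 0.32, adjusted p = 0.176), and passed with it, at 0.14 (SE 0.050, adjusted p = 0.0188), a ratio of 1.10. Cfb was at 283, 145, 157, 214 and 205 CPM in DMSO Ova and at 285, 173, 199.9, 236 and 214 in IBET Ova, where mouse A was the highest and mouse B the lowest in both. It was higher with iBET in 5 of 5 mice, and its log2 fold change was 0.14 (95% interval -0.28 to 0.57, adjusted p = 0.568). Properdin was at 711 ± 82.8 CPM in DMSO Ova and 729 ± 81.3 CPM in IBET Ova, with a log2 fold change of 0.035 (95% interval -0.16 to 0.23, adjusted p = 0.764). There were 6.09 ± 1.72 counts of C3 for each count of Cfb in DMSO Ova and 5.88 ± 1.19 in IBET Ova. C3 overlaps the annotated gene Mir6978, and Cfb overlaps Gm20547 and Mir6972. How shared reads were assigned is not given in the sources used here.

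The macrophage receptor and lipid genes did not pass the test with Ova. Mertk was at 95.5, 111, 59.1, 63.8 and 64.6 CPM in DMSO Ova and at 94.7, 92.7, 55.4, 60.3 and 55.9 CPM in IBET Ova. It was lower in 5 of 5 mice by small amounts, -0.26 to -0.011 on the log2 scale, with a log2 fold change of -0.13 (95% interval -0.60 to 0.33, adjusted p = 0.631) without the block and -0.13 (95% interval -0.27 to 0.0088, adjusted p = 0.0886) with it. Trem2 was at 168, 201, 117, 114 and 93.9 CPM in DMSO Ova and at 146, 129.8, 98.0, 94.2 and 88.5 in IBET Ova, also lower in 5 of 5 mice. Its log2 fold change was -0.32 (95% interval -0.79 to 0.15, adjusted p = 0.24), and passed with the block at -0.29 (SE 0.062, adjusted p = 3.89e-04). Apoe was at 30.6, 40.8, 16.1, 12.0 and 9.08 CPM in DMSO Ova and at 29.5, 21.6, 19.1, 12.0 and 10.6 in IBET Ova. Mice A and B were lower with iBET and mice C, D and E were not, and the interval of the log2 fold change was the widest of the 10 genes, at -0.22 (95% interval -1.10 to 0.66, adjusted p = 0.674). Gpnmb, the most abundant of the 10 in CPM, was at 2311, 1879.7, 916, 978 and 1125 CPM in DMSO Ova and at 2097, 1520.3, 1077, 984 and 1227 in IBET Ova. It was lower in mice A and B and higher in C, D and E, with a log2 fold change of -0.062 (95% interval -0.65 to 0.53, adjusted p = 0.865). With surrogate variables the value turned to 0.17 and passed (adjusted p = 0.0444 in edgeR). With the mouse as a block, 4 of 10 genes were lower and 1 higher in Ova, where 35.2% and 33.5% of all genes were.

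**Figure D2:**
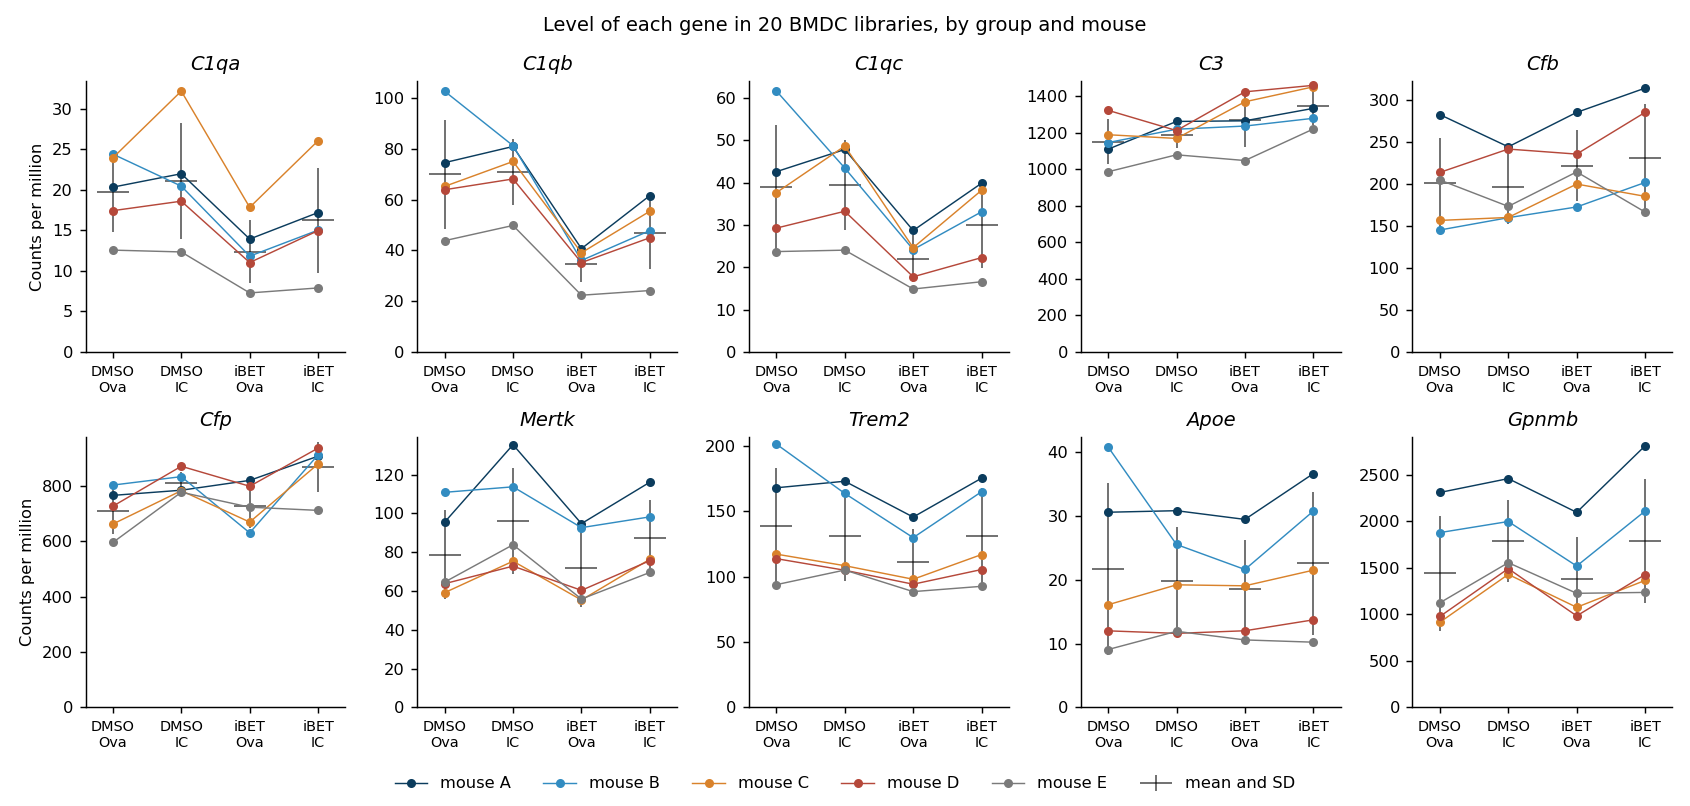
Level in CPM (y axis, linear from 0) of the 10 genes in the 4 groups (x axis), with 1 coloured line per mouse and the mean and SD of 5 mice in black. C1qa, C1qb and C1qc step down from the DMSO to the iBET group with the same stimulus in each mouse. Mice A and B lie above mice C, D and E throughout for Mertk, Trem2, Apoe and Gpnmb.

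The second comparison put the same question to cells given immune complexes. C1qb fell again, and the other C1q chains were lower in each mouse without passing the test. C1qb was at 81.0, 81.3, 75.1, 68.2 and 49.9 CPM in mice A to E with DMSO IC and at 61.6, 47.8, 55.5, 45.0 and 24.2 CPM with IBET IC, and the groups overlapped. Its log2 fold change was -0.60 (SE 0.23, adjusted p = 0.0317), a ratio of 0.660. C1qc was at 47.8, 43.4, 48.6, 33.2 and 24.0 CPM in DMSO IC and at 39.9, 33.1, 38.2, 22.3 and 16.6 in IBET IC, with a log2 fold change of -0.39 (95% interval -0.95 to 0.17, adjusted p = 0.228). C1qa was at 22.0, 20.5, 32.2, 18.6 and 12.3 CPM in DMSO IC and at 17.2, 15.0, 26.1, 15.0 and 7.90 in IBET IC, with a log2 fold change of -0.38 (95% interval -0.96 to 0.21, adjusted p = 0.267). Mouse C stood highest for C1qa in both groups. By edgeR 1 of 10 genes was lower and 0 higher, where 29.0% of all genes were lower and 27.1% higher.

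All 3 chains were lower with iBET in 5 of 5 mice in IC, by -0.64 to -0.30 for C1qa, -1.04 to -0.39 for C1qb and -0.58 to -0.26 for C1qc on the log2 scale. The call for C1qb was lost without mouse B (log2 fold change -0.54, adjusted p = 0.0872), mouse C (-0.64, adjusted p = 0.0696) or mouse D (-0.60, adjusted p = 0.0952) in edgeR. With the mouse as a block each chain passed, at -0.40 (SE 0.090, adjusted p = 7.22e-04) for C1qa, -0.63 (SE 0.10, adjusted p = 2.07e-05) for C1qb and -0.42 (SE 0.10, adjusted p = 0.00177) for C1qc. Under the block 3 of 10 genes were then lower and 2 higher, against 35.4% and 32.6% of all genes.

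The genes that rose under the block in IC were C3 and Cfb. C3 was at 1263, 1219.9, 1169, 1212 and 1079.7 CPM in DMSO IC and at 1334, 1279.8, 1452, 1460.2 and 1221 in IBET IC, higher in 5 of 5 mice. The log2 fold change was 0.18 (95% interval 0.0015 to 0.36, adjusted p = 0.0801) without the block and 0.18 (SE 0.050, adjusted p = 0.00367) with it. Cfb was at 244, 159.9, 160.1, 242 and 173 CPM in DMSO IC and at 314, 202, 185, 285 and 167 in IBET IC, higher in each mouse but E. Its log2 fold change was 0.24 (95% interval -0.19 to 0.66, adjusted p = 0.335) without the block and 0.23 (SE 0.084, adjusted p = 0.0238) with it. Cfp did not pass in either fit and had a log2 fold change of 0.10 (95% interval -0.090 to 0.30, adjusted p = 0.357) from 810.0 ± 41.1 to 869.7 ± 90.5 CPM. The receptor and lipid genes showed no difference that passed. Their log2 fold changes were -0.14 (95% interval -0.60 to 0.32, adjusted p = 0.61) for Mertk and 0.0020 (95% interval -0.47 to 0.47, adjusted p = 0.994) for Trem2. For Apoe the value was 0.20 (95% interval -0.68 to 1.08, adjusted p = 0.707), and for Gpnmb 0.0028 (95% interval -0.59 to 0.59, adjusted p = 0.994). The blocked intervals were narrower, at -0.14 to 0.12 for Trem2 and -0.21 to 0.14 for Gpnmb.

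**Figure D3:**
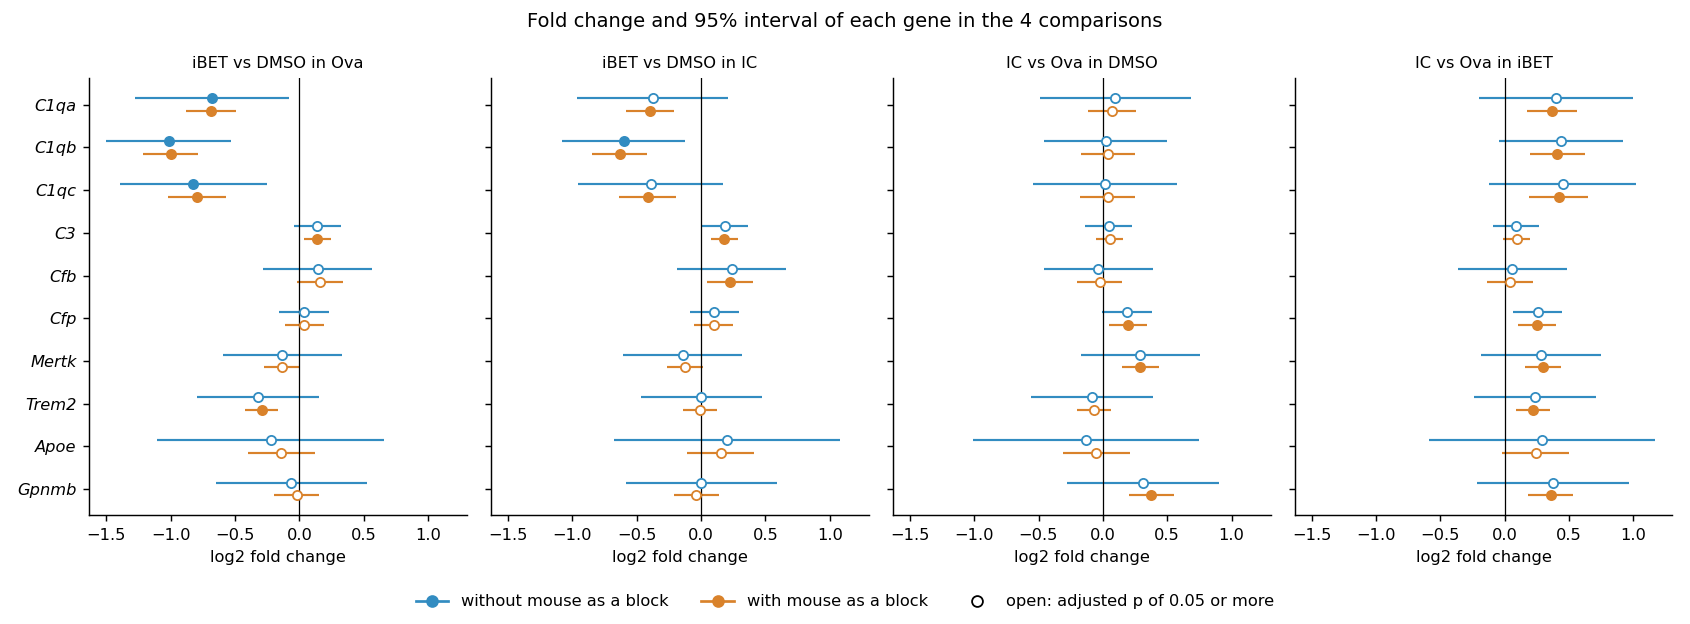
Log2 fold change with its 95% interval (x axis) for the 10 genes (y axis) in the 4 comparisons, without (blue) and with (orange) the mouse as a block; filled points have an adjusted p under 0.05. Without the block, points are filled for C1qa, C1qb and C1qc with Ova and for C1qb with IC alone, and the blocked intervals of C1qb lie at -1.22 to -0.78 with Ova and -0.85 to -0.42 with IC.

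The next comparison asked how immune complexes themselves changed these genes under DMSO. None of the 10 genes passed in edgeR, 0 had an unadjusted p under 0.05, and DESeq2 called 0. Of all genes, 9.59% were higher with IC and 10.7% lower. The C1q chains had log2 fold changes near 0 with TMM and below 0 with library size alone. With TMM they were 0.10 (95% interval -0.49 to 0.68, adjusted p = 0.859) for C1qa, 0.021 (95% interval -0.45 to 0.50, adjusted p = 0.968) for C1qb and 0.018 (95% interval -0.54 to 0.58, adjusted p = 0.977) for C1qc. Mouse B was lower with IC for each chain, by 0.50 on the log2 scale for C1qc, and the chains were higher in 3 or 4 of 5 mice. With the mouse as a block 3 genes were higher and 0 lower, where 18.3% and 19.8% of genes were. They were Mertk at 0.29 (SE 0.067, adjusted p = 0.00229), Gpnmb at 0.38 (SE 0.084, adjusted p = 0.00171) and Cfp at 0.19 (SE 0.071, adjusted p = 0.0393), each higher in 5 of 5 mice. Mertk rose from 78.8 ± 23.0 to 96.2 ± 27.3 CPM and Gpnmb from 1442 ± 620.4 to 1788 ± 437 CPM, in both cases by less than the SD between mice. Without the block their log2 fold changes were 0.29 (95% interval -0.17 to 0.75, adjusted p = 0.396) for Mertk, 0.31 (95% interval -0.28 to 0.90, adjusted p = 0.487) for Gpnmb and 0.19 (95% interval -0.0044 to 0.38, adjusted p = 0.161) for Cfp. Trem2 (-0.084, 95% interval -0.56 to 0.39, adjusted p = 0.847), Apoe (-0.13, 95% interval -1.01 to 0.75, adjusted p = 0.875), C3 (0.046, 95% interval -0.14 to 0.23, adjusted p = 0.766) and Cfb (-0.035, 95% interval -0.46 to 0.39, adjusted p = 0.934) did not pass in either fit.

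With iBET present, all 10 genes had a positive log2 fold change for IC against Ova, of which C3 and Cfb turned negative when scaled by library size alone (-0.019 and -0.048) and Cfb with surrogate variables (-0.053). None passed in edgeR without the block. Cfp had an unadjusted p under 0.05 and was the 1 gene called by DESeq2, while 5.19% of all genes were higher and 6.63% lower in edgeR. The median log2 fold change was 0.29 over the 10 genes and -0.014 over all genes. With the mouse as a block 7 genes were higher and 0 lower, against 14.2% and 14.7% of all genes. The C1q chains were among them, each higher with IC in 5 of 5 mice, at 0.37 (SE 0.093, adjusted p = 0.00671) for C1qa, 0.41 (SE 0.10, adjusted p = 0.00618) for C1qb and 0.42 (SE 0.11, adjusted p = 0.00707) for C1qc. C1qb went from 34.7 ± 7.25 to 46.8 ± 14.2 CPM, which was still below its DMSO mean of 71.1 CPM with IC. Mertk (0.30, SE 0.067, adjusted p = 0.00296), Trem2 (0.22, SE 0.062, adjusted p = 0.0131) and Gpnmb (0.36, SE 0.084, adjusted p = 0.00364) were higher in 5 of 5 mice, and Cfp (0.25, SE 0.071, adjusted p = 0.0128) in 4 of 5. The unblocked values were 0.40 (95% interval -0.20 to 0.99, adjusted p = 0.419) for C1qa, 0.44 (95% interval -0.046 to 0.92, adjusted p = 0.242) for C1qb and 0.45 (95% interval -0.12 to 1.02, adjusted p = 0.319) for C1qc. For the receptors they were 0.28 (95% interval -0.18 to 0.74, adjusted p = 0.469) for Mertk, 0.24 (95% interval -0.24 to 0.71, adjusted p = 0.568) for Trem2 and 0.37 (95% interval -0.21 to 0.96, adjusted p = 0.443) for Gpnmb, and for Cfp 0.26 (95% interval 0.063 to 0.45, adjusted p = 0.0774). Without mouse E, 2 of 10 genes passed in edgeR, C1qb (adjusted p = 0.0415) and Cfp (adjusted p = 0.0362). Apoe (0.29, 95% interval -0.59 to 1.17, adjusted p = 0.728), C3 (0.088, 95% interval -0.093 to 0.27, adjusted p = 0.582) and Cfb (0.058, 95% interval -0.37 to 0.48, adjusted p = 0.896) passed in neither fit. The comparisons of IC with Ova and of iBET with DMSO share libraries, so their values are not independent of each other.

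Whether the iBET effect differed between stimuli was tested directly as an interaction, the log2 effect of iBET with IC minus that with Ova. No gene of the 10 passed in edgeR, 0 had an unadjusted p under 0.05, DESeq2 called 0, and 0.0241% of all genes were higher and 0.0160% lower. With the mouse as a block the count was again 0 of 10, where 0.401% and 0.417% of genes passed. The C1q decrease was smaller with IC in most mice, with blocked differences of 0.29 (95% interval 0.022 to 0.56, adjusted p = 0.388) for C1qa, 0.37 (95% interval 0.066 to 0.67, adjusted p = 0.304) for C1qb and 0.38 (95% interval 0.069 to 0.70, adjusted p = 0.304) for C1qc. These differences were above 0 in 5, 4 and 5 of 5 mice, respectively. Trem2 had the lowest blocked adjusted p of the 10, at 0.29 (95% interval 0.10 to 0.47, adjusted p = 0.161). Without the block the interval for C1qb was -0.26 to 1.09. The other differences without the block were 0.30 for C1qa, 0.43 for C1qc, 0.32 for Trem2, 0.42 for Apoe, -0.0080 for Mertk, 0.065 for Gpnmb, 0.042 for C3, 0.093 for Cfb and 0.067 for Cfp, all with an adjusted p of 0.9999.

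The receptor and lipid genes also differed between mice. Mice A and B lay above mice C, D and E without overlap in each of the 4 groups for Mertk, Trem2, Apoe and Gpnmb, a division made after the values were seen and not tested. In DMSO Ova, Gpnmb was at 1879.7 and 2311 CPM in mice B and A and at 916 to 1125 CPM in the others. Apoe in IBET IC was at 30.8 and 36.7 CPM in these mice and at 10.2 to 21.5 CPM in the others. The same mice stood apart on the second principal component of all genes (14.9% of the variance). The labels name no batch, while the paper's methods report that batch effects were removed and do not say what the batches were. The other 6 genes showed it in at most 2 of the 4 groups. Mouse E was the lowest for all 3 C1q chains in each group.

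After group means were removed, the receptor and lipid genes varied together over the 20 libraries, as did the C1q chains. These correlations are a description, since the 4 libraries of a mouse share an animal. Among receptor and lipid genes, Pearson's r of log2 CPM was 0.96 for Apoe and Trem2, 0.94 for Mertk and Trem2, 0.91 for Mertk and Gpnmb and 0.89 for Trem2 and Gpnmb. Among C1q chains it was 0.92 for C1qb and C1qc, 0.85 for C1qa and C1qc and 0.85 for C1qa and C1qb. The value was 0.92 for C1qc and Apoe and 0.18 for C1qa and Gpnmb. C3 and Cfb, which act in 1 enzyme complex as proteins, had an r of 0.17.

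The genes most alike in pattern to each of the 10 were found by Pearson's r of log2 CPM over the 20 libraries, group differences included, among 8379 other genes with a mean of 10 CPM or more. C1qa was most like C1qc (0.90) and C1qb (0.88), and C1qc most like C1qb (0.94) and C1qa (0.90). C1qb was nearest to C1qc and then to Sdc1 (0.91), a cell surface proteoglycan. Gpnmb was nearest to the chemokine gene Ccl6 (0.98) and to Tyrobp (0.98), the adaptor through which Trem2 signals. Mertk was nearest to Ncstn (0.96), a gamma-secretase subunit, and Ccl6 (0.94), and Apoe to Trem2 (0.93) and the platelet factor gene Pf4 (0.92). Trem2 was nearest to Ugt1a2 and Ugt1a1 (both 0.95), which overlap each other in the genome. Cfb was nearest to the acute phase gene Saa3 (0.87) and to Ly6e (0.75), C3 to Ccni (0.79) and Zfp36 (0.78), and Cfp to Rpl35a (0.91) and Trappc1 (0.90).

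Among receptors for complement fragments, C3ar1 and C5ar2 had more negative log2 fold changes with iBET in Ova than any of the 10 genes. C3ar1, the receptor for the C3a fragment, fell from 146 ± 49.1 CPM in DMSO Ova to 16.1 ± 5.93 CPM in IBET Ova, a log2 fold change of -3.18 (SE 0.31, adjusted p = 4.52e-08), while that of C3 was 0.14. C5ar2, a second receptor for C5a, fell from 8.59 ± 4.12 to 0.699 ± 0.272 CPM, a log2 fold change of -3.61 (SE 0.37, adjusted p = 7.10e-08). Cd93, once described as a C1q receptor, fell by 1.27 on the log2 scale (adjusted p = 6.93e-04 in edgeR). Calr, the chaperone calreticulin that also binds C1q, rose by 0.92 (SE 0.11, adjusted p = 3.94e-07). In the list of 11 complement receptors and C1q-binding proteins, 9 were tested with Ova, of which 3 fell, 1 rose and 5 did not pass. Of all genes 28.9% fell and 27.7% rose, and the median log2 fold change of the list was -0.073. With the block 4 of the list fell and 2 rose, against 35.2% and 33.5% of all genes. With IC 3 were lower and 1 higher (29.0% and 27.1% of all genes), or 4 and 3 with the block (35.4% and 32.6%). C3ar1 was at -3.31 with IC (SE 0.32, adjusted p = 2.97e-08). Itgam, Itgax and Itgb2, which form complement receptors 3 and 4, did not pass without the block, with log2 fold changes of 0.11, 0.10 and 0.15 with Ova. With the block Itgb2 passed with Ova (0.16, adjusted p = 0.00574 in edgeR), as did the C5a receptor gene C5ar1 (-0.61, adjusted p = 4.23e-04).

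Fewer of the other complement components were expressed. Of 16 genes that act with C1q or the lectins in initiation, 7 passed the filter and 1 fell with Ova, where 28.9% of all genes fell. It was the scavenger lectin Colec12, which fell by 1.25 on the log2 scale (adjusted p = 8.35e-04 in edgeR) to 8.83 ± 3.35 CPM. C1ra (53.3 ± 17.0 CPM in DMSO Ova) and C1s1 (5.58 ± 2.34 CPM), which encode the proteases carried by C1q, had log2 fold changes of 0.041 (SE 0.25, adjusted p = 0.901) and 0.035 (SE 0.32, adjusted p = 0.934) in edgeR. Each has a near-identical copy (C1rb and C1s2) with which reads may be shared. With iBET in IC 1 gene of this list fell and 0 rose, against 29.0% and 27.1% of all genes. With the block 1 fell and 2 rose (35.4% and 32.6% of all genes), the latter C1ra and C1s1. C2 and C4b did not pass the filter. Of 8 further alternative and terminal pathway genes only C8g was tested, at 0.576 ± 0.138 CPM in DMSO Ova, with a log2 fold change of -0.91 (SE 0.33, adjusted p = 0.025) and no call by DESeq2. Of 13 complement regulators 5 were tested and 0 passed with Ova or with IC in edgeR, 0 had an unadjusted p under 0.05, and DESeq2 called 0.

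Genes of apoptotic cell uptake related to Mertk were lower more often than higher with Ova. Of 18 listed, 13 were tested, 6 fell, 2 rose and 5 did not pass, where 28.9% of all genes fell and 27.7% rose. The median log2 fold change of the list was -0.23. With the block 7 fell and 3 rose, against 35.2% and 33.5% of all genes. With IC 5 fell and 1 rose (29.0% and 27.1% of all genes), or 7 and 2 with the block (35.4% and 32.6%). IC against Ova under DMSO gave 3 higher and 1 lower (9.59% and 10.7%), or 4 and 3 with the block (18.3% and 19.8%). Axl, a receptor kinase of the same family as Mertk, fell from 1236 ± 65.0 to 995 ± 80.8 CPM (-0.31, SE 0.072, adjusted p = 9.80e-04). The scavenger receptor gene Stab1 fell from 60.0 ± 29.7 to 20.8 ± 6.15 CPM (-1.53, SE 0.32, adjusted p = 4.56e-04). The integrin gene Itgav rose (0.36, SE 0.070, adjusted p = 1.93e-04), as did Gas6 (1.07, SE 0.30, adjusted p = 0.00509), a bridging ligand of Mertk and Axl that was at 0.539 ± 0.220 CPM in DMSO Ova.

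Of 20 further macrophage identity genes 16 were tested with Ova, of which 6 fell, 1 rose and 9 did not pass. Of all genes 28.9% fell and 27.7% rose. The median log2 fold change of the list was -0.22, with 5 genes above 0 and 11 below. With the block 8 fell and 4 rose, against 35.2% and 33.5% of all genes. With IC 6 fell and 2 rose without the block (29.0% and 27.1% of all genes), and 7 and 4 with it (35.4% and 32.6%). Fcgr1, the high-affinity IgG receptor, fell from 62.7 ± 9.73 to 14.7 ± 1.74 CPM (-2.09, SE 0.16, adjusted p = 1.37e-09), and Nr1h3, which encodes the lipid sensor LXR alpha, from 4.88 ± 1.62 to 1.17 ± 0.293 CPM (-2.04, SE 0.22, adjusted p = 1.59e-07). Csf1r, the receptor for M-CSF, fell by 0.83 on the log2 scale (adjusted p = 3.23e-05 in edgeR). Adgre1 (F4/80) was at 163 ± 12.5 CPM in DMSO Ova and 146 ± 16.5 CPM in IBET Ova, and passed only with the block (-0.17, adjusted p = 0.00542 in edgeR). With IC, Adgre1 lay between 143 and 171 CPM in DMSO IC and between 142 and 177 CPM in IBET IC. The genes named from this list were all lower with iBET in Ova, and none of those above 0 is named.

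Among 29 partners of Trem2, Apoe and Gpnmb, 28 were tested, and 14 fell and 2 rose with Ova, where 28.9% of all genes fell and 27.7% rose. The median log2 fold change of the list was -0.40. With the block 18 fell and 5 rose, against 35.2% and 33.5% of all genes. Syk, the kinase downstream of Tyrobp, fell from 409.8 ± 23.4 to 209.7 ± 6.42 CPM (-0.97, SE 0.051, adjusted p = 7.77e-12), whereas Tyrobp was at 409.7 ± 106 and 406 ± 80.3 CPM (-0.012, SE 0.18, adjusted p = 0.96). Mitf, which encodes a factor known to drive Gpnmb, fell from 92.1 ± 8.14 to 42.6 ± 5.25 CPM (-1.11, SE 0.082, adjusted p = 9.32e-10), with a Gpnmb log2 fold change of -0.062 in the same comparison. The related Tfe3 rose slightly (0.21, SE 0.052, adjusted p = 0.00156), as did the LXR beta gene Nr1h2 (0.25, SE 0.087, adjusted p = 0.0191). The lipid exporter gene Abcg1 fell from 975 ± 75.0 to 555 ± 57.0 CPM (-0.81, SE 0.087, adjusted p = 1.55e-07), while Apoe, which takes up exported lipid, did not pass. With IC 13 of these partners fell and 4 rose under iBET (29.0% and 27.1% of all genes), or 15 and 6 with the block (35.4% and 32.6%). IC against Ova gave 9 higher and 2 lower under DMSO (9.59% and 10.7%) and 7 higher and 0 lower under iBET (5.19% and 6.63%). With the block these counts were 15 and 4 under DMSO (18.3% and 19.8%) and 16 and 1 under iBET (14.2% and 14.7%). The percentages of all genes called, given with each comparison, are the background for these lists as well.

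**Figure D4:**
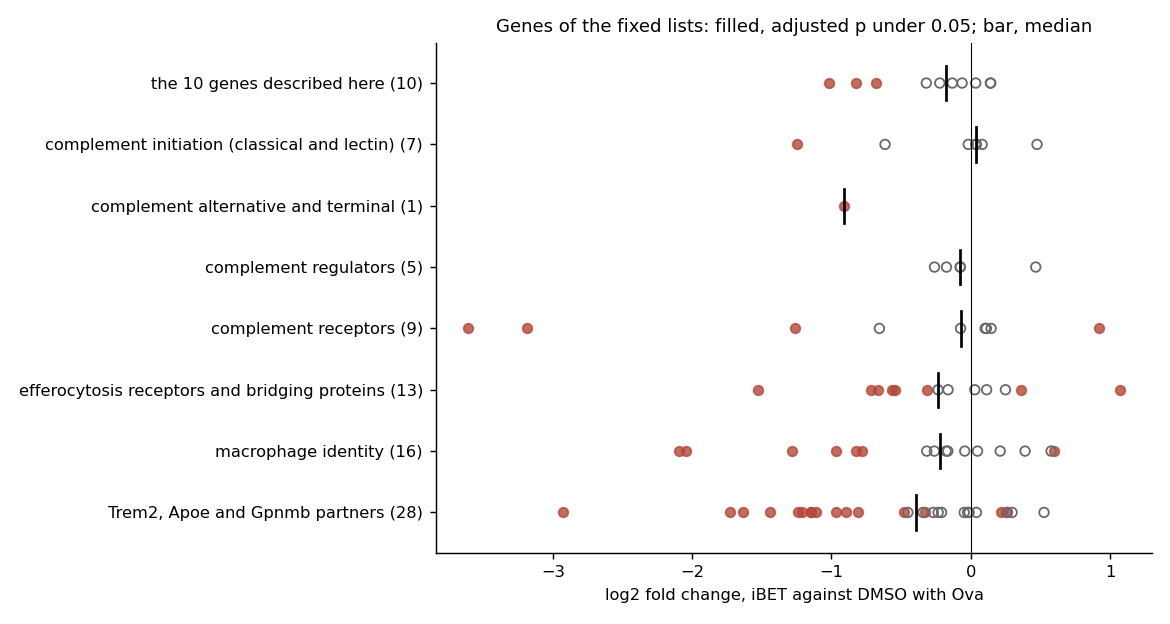
Log2 fold change of iBET against DMSO with Ova (x axis) for the 10 genes and for the tested genes of 7 lists (rows, number tested in brackets); filled points have an adjusted p under 0.05 in edgeR and the bar is the median. C3ar1 and C5ar2 lie farthest left among complement genes at -3.18 and -3.61, and the 10 genes span -1.02 to 0.14.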

How the data were processed

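RNA-seq of BMDCs was analysed for 20 libraries (5 mice, 4 groups). Per the methods and labels, the authors trimmed reads, aligned them to mm10 with HISAT2 and counted them with featureCounts. The methods also give a test with DESeq2 and a removal of batch effects with sva. The annotation and strand setting are not given in the sources used here. The labels place iBET together with the stimulus, the methods before it. The authors deposited raw counts per gene, which were tested here, and normalised signal values, each count over its library's size factor, which served only as an alternative. Genes were filtered with filterByExpr, scaled with TMM and tested with edgeR 4.0.16 (quasi-likelihood, R 4.3.3) on the 4 groups, with Benjamini-Hochberg adjustment over 12465 genes and an adjusted p threshold of 0.05. The test was also run on simulated counts in which far fewer genes changed than were called here with iBET. That run did not cover so broad a change, nor a division of mice shared by many genes.

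Library totals ranged from 16447491 to 29245150 counts. Libraries of a group differed by more than counting error (chi-square per degree of freedom at least 12.6 in 40 pairs), so errors are SDs between mice. Libraries with the same letter come from the same animal, so the mouse as a block was fitted as well. The block is given where it changed a call for the 10 genes, and for the lists as counts beside those without it. Deviations from group means correlated at 0.31 to 0.68 in 30 pairs of the same animal. Pairs of different animals were not compared, so these values cannot separate an animal effect from the division of mice A and B from C, D and E.

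The 10 genes, the gene lists and the tests were chosen with earlier results of these data known. Named from each list were the 2 genes with the lowest adjusted p among those lower and the 2 among those higher with Ova, and for each of the 10 genes the 2 most alike in pattern. Cd93, Csf1r, Abcg1, Tyrobp, Adgre1, the integrin genes, C1ra, C1s1, C2, C4b, C5ar1, Flt3 and Ccr2 were named after their values were seen. So were Mmp8, S100a8 and S100a9. A gene that the rule would name is not reported here. Positions and exon lengths came from GENCODE M21 (GRCm38), which held 23376 of 24421 symbols. Promoter windows came from RefSeq (GRCm38.p6), with 8 of the 10 genes listed. Alternatives were the block, DESeq2 1.42.0 without and with it, its size factors, library size only, no filter, only the groups compared, 3 surrogate variables (sva 3.50.0), a minimum of 1 for the absolute log2 fold change, log2 of the deposited signal values plus 1 in limma 3.58.1, and each mouse left out.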

Additional observations from a re-analysis of the deposited data

Results flagged for a closer look

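Cfp in IBET IC was 712 CPM in mouse E, below the other 4 mice, of which the lowest was at 879.6 CPM. The gap was 0.745 of the range of the group, above Dixon's 95% critical value of 0.71 for 5 samples. It was the only such value among 40 groups of 5 values (10 genes, 4 groups), where chance alone flags about 1 in 20. Mouse E was also the only mouse in which Cfp was lower with IC than with Ova under iBET (-0.023 on the log2 scale). Without mouse E, the log2 fold change of Cfp for IC against Ova under iBET was 0.32 (adjusted p = 0.0362 in edgeR), and 0.26 with all mice.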

How the results depend on the processing

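The number of the 10 genes called with iBET in Ova was 3, and it was 5 with the replicate block, with DESeq2 and the block and with surrogate variables, 1 with a minimum of 1 for the absolute log2 fold change, and 1 to 3 with a mouse left out, the lowest without mouse B. In IC it was 1, and it was 5 with the block and with DESeq2 and the block, 2 with only the groups compared, 0 at the fold threshold, and 0 to 1 with a mouse left out, the lowest without B, C or D. For IC against Ova under DMSO it was 0, and it was 3 with the block and with DESeq2 and the block, and 2 with surrogate variables. Under iBET it was 0, and it was 7 with the block and with DESeq2 and the block, 4 with surrogate variables, 1 with DESeq2, and 0 to 2 with a mouse left out. The interaction gave 0 under every alternative run. The cause of these changes was not tested.

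C1qb in Ova passed under 14 of 14 alternatives, C1qc under 13 and C1qa under 8. These counts leave out the minimum of 1 for the absolute log2 fold change, which C1qc (-0.82) and C1qa (-0.68) did not reach. Under the block, 16 further values over the 5 comparisons passed and no call was lost. Scaling by library size alone moved the median log2 fold change of all genes by -0.11 for IC against Ova under DMSO and by -0.11 under iBET. The share of higher genes among all calls then went from 47.3% to 18.3% under DMSO and from 43.9% to 13.4% under iBET.

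Of the log2 fold changes that changed sign, 1 passed a test. Gpnmb with iBET in Ova rose with surrogate variables (0.17, adjusted p = 0.0444 in edgeR). Library size alone gave -0.015 for Cfp with iBET in Ova, -0.049 for Trem2 and -0.051 for Gpnmb in IC, -0.0040, -0.081, -0.081 and -0.062 for C1qa, C1qb, C1qc and C3 with IC under DMSO, and -0.019 and -0.048 for C3 and Cfb under iBET. With iBET in IC, Trem2 was -0.0067 with the block, -0.00028 with DESeq2 and the block, -0.040 with surrogate variables and -0.00041 in limma, and Gpnmb -0.038, -0.032 and -0.032 with the block, with DESeq2 and the block and in limma. Surrogate variables gave -0.053 for Cfb with IC under iBET. The interaction was 0.0063, 0.0091 and 0.0078 for Mertk and -0.019, -0.015 and -0.020 for Gpnmb with the block, with DESeq2 and the block and in limma, and -0.038 for Gpnmb with surrogate variables.

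With a mouse left out, signs changed for iBET in Ova over ranges of -0.32 to 0.087 for Apoe, -0.11 to 0.036 for Gpnmb and -0.019 to 0.16 for Cfp, and in IC of -0.012 to 0.034 for Trem2 and -0.077 to 0.065 for Gpnmb. For IC against Ova under DMSO the ranges were -0.021 to 0.20 for C1qa, -0.019 to 0.15 for C1qb, -0.076 to 0.21 for C1qc, -0.21 to 0.11 for Apoe and -0.10 to 0.029 for Cfb, and under iBET -0.0074 to 0.14 for Cfb. For the interaction they were -0.037 to 0.062 for Mertk, -0.050 to 0.16 for Gpnmb, -0.00027 to 0.14 for Cfb and -0.044 to 0.17 for Cfp. The fewest counts in a library were 142 for C1qa and 177 for Apoe.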
